A study of Mus musculus with 18 samples.

Results

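Feedback inhibitors of innate signalling and factors that destroy inflammatory mRNAs were followed through confinement and lipopolysaccharide (LPS) treatment of mouse dendritic cells (DCs). The 10 genes *Tnfaip3*, *Tnip1*, *Tnip3*, *Cyld*, *Irak3*, *Zc3h12a*, *Zc3h12c*, *Zfp36*, *Zfp36l1* and *Zfp36l2* were found by symbol among the 62197 rows of the normalized count table. All 10 passed the filter on low values, which left 17875 genes to test. The study asked how a change of cell shape alters DCs and whether the lipid enzyme cPLA_2_, encoded by *Pla2g4a*, takes part. DCs were grown from bone marrow for 10 days in medium with GM-CSF from J558 cell supernatant, and the knockout (cPLA_2_ KO) came from *Pla2g4a* fl/fl mice crossed with *Itgax*-*cre*, so that deletion was limited to cells in which the CD11c promoter had been active. The mice were of either sex. Semiadherent cells were taken as the DCs, since the culture yields macrophages and granulocytes as well. Cells of wild type (cPLA_2_ WT) and cPLA_2_ KO were left nonconfined, squeezed to 3 µm (confined) and collected 4 h later, or given 100 ng/ml LPS for 30 min, washed and collected the next day. The LPS time is that of the sample records, and the published methods give a slightly shorter one. Each of the 6 groups had 3 libraries, with 33027230 to 61300021 reads on genes per library. Values are normalized counts, that is reads per gene divided by the size factor of the library. The libraries are described as biological replicates, but the labels do not say which came from separate mice or cultures, and p-values measure the spread between these libraries, which may be partly technical.

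Pathogen and cytokine receptors activate NF-κB through ubiquitin chains that serve as scaffolds for kinases, and NF-κB in turn switches on genes that take these chains apart. A separate layer of feedback acts on the transcripts, where RNA-binding proteins recognise AU-rich elements or stem-loops in cytokine mRNAs and bring about their decay. Loss of several of these brakes in myeloid cells or DCs causes inflammation or autoimmunity in mice.

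The labels were checked first. *Pla2g4a* stood at 697, 686 and 770.4 normalized counts in nonconfined cPLA_2_ WT and at 548, 542 and 533 in nonconfined cPLA_2_ KO libraries. In confined cells it stood at 1369, 1430.3 and 1321 in cPLA_2_ WT and at 923, 871 and 919.5 in cPLA_2_ KO. Both pairs of groups were apart, by a limma log2 fold change of -0.41 (adjusted p = 0.00019) in nonconfined and -0.60 (adjusted p = 3.81e-08) in confined cells, although a gene-level count also takes in exons that the deletion may leave in place. In the LPS libraries *Pla2g4a* was not lower under the knockout label, with 1005, 969 and 967 in those labelled cPLA_2_ WT and 1065, 1032 and 1028 in those labelled cPLA_2_ KO. The Y-linked gene *Ddx3y* read 1271, 0 and 662 in the libraries labelled LPS cPLA_2_ WT and 2.12, 1476 and 783 in those labelled LPS cPLA_2_ KO. LPS cPLA_2_ WT replicate 2 and LPS cPLA_2_ KO replicate 1 thus lacked Y-linked reads while the other 4 LPS libraries had them, and the genotype label of the LPS libraries was not borne out. The LPS change of the 10 genes against nonconfined cells is therefore given over both labels, and again without these 2 libraries. That choice was made after the data were seen, and it does not settle the labels. LPS cPLA_2_ WT replicates 1 and 3, which stay in, had Y-linked reads, unlike the nonconfined and confined cPLA_2_ WT libraries. Comparisons of confined with LPS libraries are by label, and counts in gene lists use all 6 LPS libraries. *Ddx3y* was at 0 to 3.05 in all 6 nonconfined and confined cPLA_2_ WT libraries and at 874 to 1036 in the 6 of cPLA_2_ KO, so that in these groups genotype and sex of the cells cannot be told apart.

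Markers of other cells were read beside those of DCs. The 12 DC markers, of which *Cd74* was the most abundant, summed to 437092 to 463310 normalized counts in nonconfined cPLA_2_ WT and 512980 to 545699 in nonconfined cPLA_2_ KO, and to 392584 to 422477 and 353770 to 367434 after confinement. On confinement 2 were called higher and 9 lower in cPLA_2_ WT (28.2% and 28.4% of all genes), with a median log2 fold change of -0.38. In cPLA_2_ KO 0 were higher and 12 lower (22.8% and 23.4%), with a median of -0.83. The change in cPLA_2_ KO minus that in cPLA_2_ WT was called negative for 8 and positive for 0 (15.6% and 10.2%). The 14 neutrophil markers, led by *S100a9*, summed to 258933, 263763 and 261976 in nonconfined cPLA_2_ WT and to 396053, 360063 and 384599 in nonconfined cPLA_2_ KO. After confinement they summed to 173746, 166024 and 164030 in cPLA_2_ WT and to 363253, 372453 and 358802 in cPLA_2_ KO. Neutrophil markers were thus higher in the knockout with no overlap, and 13 of 14 passed the test as higher in confined cPLA_2_ KO than in confined cPLA_2_ WT, beside 18.8% of all genes. The 9 eosinophil markers, led by *Prg2*, summed to 33773 to 33938 and 77522 to 83493 in nonconfined cPLA_2_ WT and cPLA_2_ KO, and to 9318 to 9940.37 and 24839 to 25767 after confinement. The 13 macrophage and monocyte markers, led by *Lyz2*, summed to 309723 to 311865 and 337596 to 361862 before and 459444 to 484671 and 409797 to 422318 after confinement. Most of the gain in cPLA_2_ WT came from *Cd14*, which LPS also raised, and of the 13 markers 3 were called higher and 5 lower there (28.2% and 28.4% of all genes), with a median log2 fold change of -0.05. In the LPS libraries DC markers summed to 637239 to 722493, neutrophil markers to 292577 to 330079 and macrophage and monocyte markers to 380025 to 402508. Eosinophil markers summed to 48039, 27896 and 38562 under the cPLA_2_ WT label and to 27890.5, 48274 and 39142 under the cPLA_2_ KO label, lowest in the 2 libraries without Y-linked reads. None of the markers in these 4 lists was at 0 in any library. The 10 mast cell and basophil markers summed to 9895 to 10027 in nonconfined cPLA_2_ WT, 14523 to 15074 in nonconfined cPLA_2_ KO, 15419 to 16109 in confined cPLA_2_ WT, 7431 to 7714 in confined cPLA_2_ KO and at most 21452 with LPS. Their gain in confined cPLA_2_ WT came from *Hdc*, which rose by 4.07. Of the 9 of these markers tested, 1 was higher and 7 lower there (28.2% and 28.4% of all genes), with a median log2 fold change of -1.64. The 10 T, B and NK cell markers, led by *Cd3g*, summed to at most 3256 in any library. The part of these cells in the results below was not tested, and a change in the share of a cell type and a change of RNA per cell cannot be told apart in bulk libraries.

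**Figure D1:**
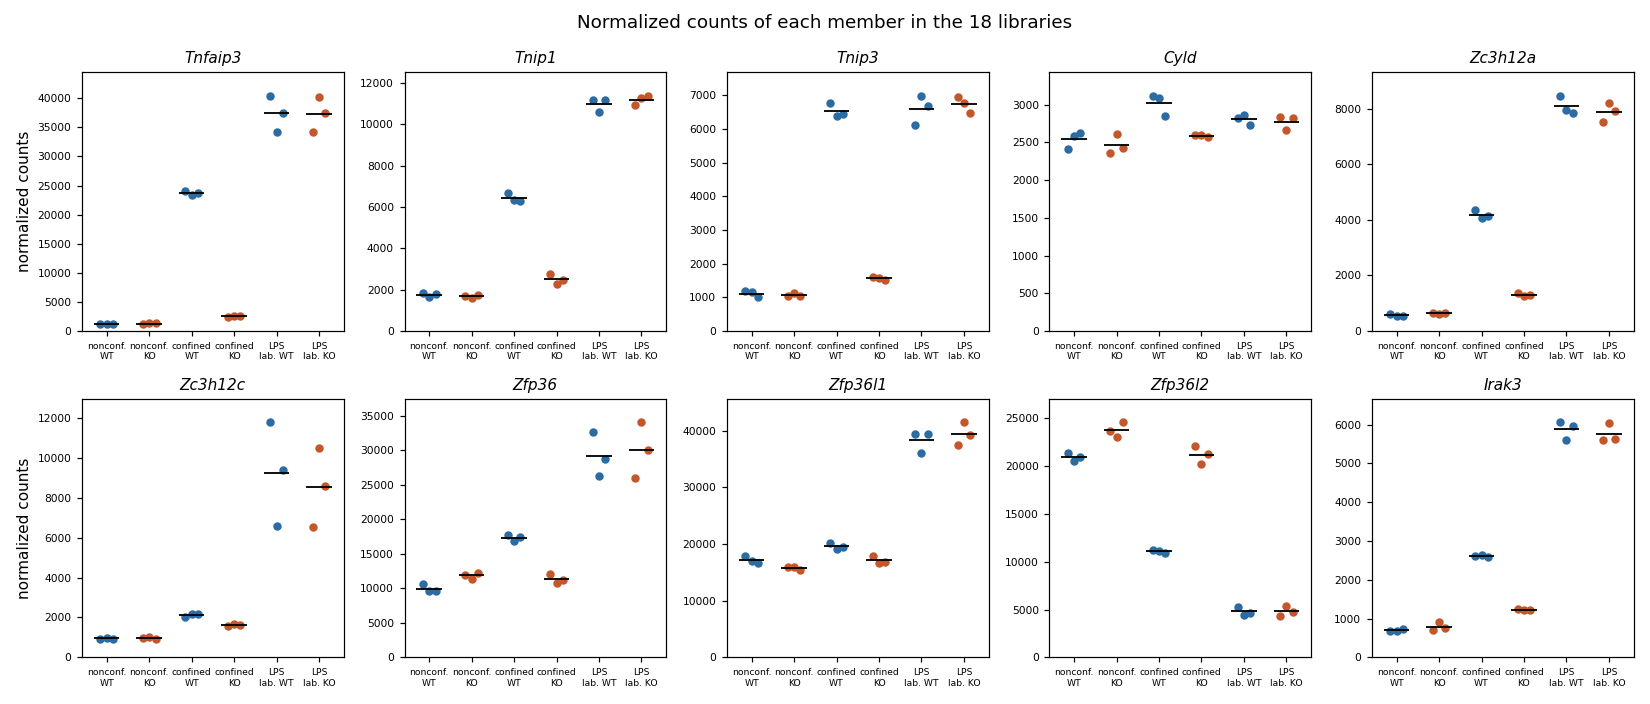
Normalized counts (vertical axes, linear from 0) of the 10 genes in the 18 libraries, with a point for each library and a line at the mean of each group of 3; blue marks the wild-type label and orange the knockout label. For *Tnfaip3*, the 3 confined cPLA_2_ WT libraries sat between 23406 and 24004, above the 2447 to 2639 of confined cPLA_2_ KO.

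A20, the product of *Tnfaip3* (mm39, chromosome 10, 18876661 to 18891158), edits ubiquitin chains on signalling proteins upstream of NF-κB. *Tnfaip3* read 1199, 1161 and 1153 normalized counts in nonconfined cPLA_2_ WT and 1149, 1346 and 1286 in nonconfined cPLA_2_ KO libraries. After confinement it read 24004, 23406 and 23736 in cPLA_2_ WT and 2447, 2492 and 2639 in cPLA_2_ KO. The nonconfined groups overlapped, while every confined library was above every nonconfined one and the confined groups were far apart. The libraries labelled LPS cPLA_2_ WT read 40455, 34227 and 37525 and those labelled LPS cPLA_2_ KO 34165, 40262 and 37467, which put all 6 above the confined cells. Confinement raised *Tnfaip3* by a log2 fold change of 4.34 ± 0.06 (SE) in cPLA_2_ WT (limma, adjusted p = 2.44e-22), the highest change among the 10 genes in that comparison. In cPLA_2_ KO the rise was 1.01 ± 0.06 (adjusted p = 4.49e-11), and the test of the difference between the genotypes gave -3.33 ± 0.09 (adjusted p = 2.49e-17). LPS raised it by 4.94 ± 0.05 over both labels (adjusted p = 1.3e-26), and by 5.0 without the 2 libraries lacking Y-linked reads. Among the 17875 genes, *Tnfaip3* ranked 145 from the top in the cPLA_2_ WT confinement comparison and 122 in the LPS comparison.

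*Tnip1* (mm39, chromosome 11, 54801611 to 54853766) encodes ABIN-1, a ubiquitin-binding partner of A20. It read 1833, 1653 and 1797 in nonconfined cPLA_2_ WT and 1678, 1609 and 1746 in nonconfined cPLA_2_ KO libraries. In confined cells it read 6673, 6354 and 6305 in cPLA_2_ WT and 2763, 2281 and 2443 in cPLA_2_ KO. Confined cPLA_2_ KO libraries thus lay between the nonconfined libraries and confined cPLA_2_ WT, with no overlap on either side. LPS gave 11148, 10601 and 11160.2 under the cPLA_2_ WT label and 10952, 11249.8 and 11379 under the cPLA_2_ KO label. The log2 fold change on confinement was 1.87 ± 0.06 in cPLA_2_ WT (adjusted p = 8.14e-17) and 0.57 ± 0.06 in cPLA_2_ KO (adjusted p = 7.18e-08), a difference of -1.30 ± 0.08 (adjusted p = 5.25e-11). LPS raised *Tnip1* by 2.69 ± 0.04 (adjusted p = 6.73e-23), and by 2.71 without the 2 libraries lacking Y-linked reads. Its exons overlap those of *Gpx3* on the opposite strand by 787 bp, and although the libraries were strand-specific, whether the counting used strand is not given in the sources used here. *Gpx3*, a secreted peroxidase, averaged 1263 in nonconfined and 1156 in confined cPLA_2_ WT libraries. It was lower in nonconfined cPLA_2_ KO than in nonconfined cPLA_2_ WT (-0.28, adjusted p = 0.0188) and rose on confinement in cPLA_2_ KO (0.24, adjusted p = 0.00951), with a difference between the genotypes of 0.36 (adjusted p = 0.01).

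*Tnip3* (mm39, chromosome 6, 65567382 to 65611024) encodes ABIN-3, another A20-binding protein whose gene responds to Toll-like receptor ligands. It read 1177, 1155 and 1003 in nonconfined cPLA_2_ WT and 1046, 1125 and 1044 in nonconfined cPLA_2_ KO libraries. Confined cells gave 6777, 6390.1 and 6456 in cPLA_2_ WT and 1609.9, 1580.3 and 1505 in cPLA_2_ KO. LPS gave 6122, 6993 and 6701 under the cPLA_2_ WT label and 6945, 6768 and 6492 under the cPLA_2_ KO label. All 3 confined cPLA_2_ WT libraries lay within the range of the LPS libraries, and confined cPLA_2_ KO stood above the nonconfined ones with no overlap. Its log2 fold change was 2.56 ± 0.06 in cPLA_2_ WT (adjusted p = 8.43e-19) and 0.55 ± 0.06 in cPLA_2_ KO (adjusted p = 2.44e-07), with a difference of -2.01 ± 0.09 (adjusted p = 6.34e-14). LPS raised it by 2.61 ± 0.04 (adjusted p = 2.35e-22), or by 2.58 without the 2 libraries lacking Y-linked reads. Confined cPLA_2_ WT and libraries labelled LPS cPLA_2_ WT differed by -0.01, with a 95% interval from -0.14 to 0.12 (adjusted p = 0.886), and the direction turned to 0.28 (adjusted p = 0.00111) when every library was scaled to the same total.

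*Cyld* (mm39, chromosome 8, 89423656 to 89478574) encodes a deubiquitinase that trims ubiquitin chains from NF-κB signalling complexes and is present in resting cells. It read 2412, 2585 and 2624 in nonconfined cPLA_2_ WT and 2354, 2612 and 2431 in nonconfined cPLA_2_ KO libraries. Confined cells gave 3120.2, 3096 and 2853 in cPLA_2_ WT and 2594, 2593 and 2566 in cPLA_2_ KO. LPS gave 2829, 2869 and 2736 under the cPLA_2_ WT label and 2834, 2666 and 2827 under the cPLA_2_ KO label. All 18 values of *Cyld* lay between 2354 and 3120.2, and the confined cPLA_2_ WT libraries were above all nonconfined ones but overlapped those given LPS. The log2 fold change on confinement was 0.25 ± 0.05 in cPLA_2_ WT (adjusted p = 0.000267) and 0.07 ± 0.05 in cPLA_2_ KO (adjusted p = 0.289). With every library scaled to the same total the change in cPLA_2_ WT was 0.03 and no longer called (adjusted p = 0.709). The difference of -0.18 between the genotypes did not pass the test (adjusted p = 0.073), but did so without nonconfined cPLA_2_ KO replicate 1 (adjusted p = 0.0424) or without confined cPLA_2_ WT replicate 3 (adjusted p = 0.0363). edgeR (-0.22, adjusted p = 0.0296) and DESeq2 (-0.20, adjusted p = 0.0411) also called the difference for *Cyld*, while scaling to the same total turned it to 0.01 (adjusted p = 0.951). The LPS change was 0.16 ± 0.04 (adjusted p = 0.000525), or 0.14 without the 2 libraries lacking Y-linked reads. It turned to -0.34 with every library scaled to the same total, so its direction depends on the scaling. That scaling moved the median of all genes from -0.01 to -0.23 in the cPLA_2_ WT confinement comparison and from 0.02 to -0.47 in the LPS comparison.

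*Irak3* (mm39, chromosome 10, 119977553 to 120038037) encodes IRAK-M, a member of the IRAK family that restrains signalling downstream of MyD88. It read 672, 679 and 737 in nonconfined cPLA_2_ WT and 706, 905 and 769.6 in nonconfined cPLA_2_ KO libraries. Confined cells gave 2621, 2629 and 2579 in cPLA_2_ WT and 1253, 1213 and 1214 in cPLA_2_ KO. LPS gave 6060.3, 5607 and 5961 under the cPLA_2_ WT label and 5608, 6037 and 5629.7 under the cPLA_2_ KO label. The confined cPLA_2_ WT libraries lay between the nonconfined and the LPS libraries, and confined cPLA_2_ KO lay below confined cPLA_2_ WT in every library. *Irak3* rose on confinement by 1.91 ± 0.07 in cPLA_2_ WT (adjusted p = 7.94e-16) and by 0.64 ± 0.07 in cPLA_2_ KO (adjusted p = 1.26e-07), with a difference of -1.27 ± 0.10 (adjusted p = 9.18e-10). LPS raised it by 2.97 ± 0.05 (adjusted p = 1.55e-22), or by 3.00 without the 2 libraries lacking Y-linked reads. Nonconfined cPLA_2_ KO exceeded nonconfined cPLA_2_ WT by 0.18 (adjusted p = 0.106), or by 0.26 (adjusted p = 0.0251) without cPLA_2_ KO replicate 1. Exons of *Irak3* overlap the lncRNA gene *Gm34545* by 356 bp, *Tmbim4* by 120 bp and *Gm47009* by 28 bp on the opposite strand, and if the counting did not use strand such reads cannot be told apart. *Tmbim4* moved in the same direction, from 2277 to 3060 in cPLA_2_ WT (0.43, adjusted p = 1.8e-06), with a difference between the genotypes of -0.38 (adjusted p = 0.00121) and an LPS change of 0.55 (adjusted p = 6.92e-11).

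Regnase-1, the product of *Zc3h12a* (mm39, chromosome 4, 125012207 to 125021674), is an endoribonuclease that cleaves stem-loops in cytokine mRNAs. *Zc3h12a* read 602, 528 and 543 in nonconfined cPLA_2_ WT and 655, 602 and 661 in nonconfined cPLA_2_ KO libraries. Confined cells gave 4360.0, 4060.3 and 4119 in cPLA_2_ WT and 1359.6, 1271 and 1294 in cPLA_2_ KO. LPS gave 8465, 7948 and 7852 under the cPLA_2_ WT label and 7511, 8199 and 7931 under the cPLA_2_ KO label. Its levels rose from nonconfined cPLA_2_ WT through nonconfined cPLA_2_ KO, confined cPLA_2_ KO and confined cPLA_2_ WT to LPS with no overlap between these steps, and overlapped between the LPS labels alone. Confinement raised *Zc3h12a* by 2.91 ± 0.06 in cPLA_2_ WT (adjusted p = 3.75e-20) and by 1.03 ± 0.06 in cPLA_2_ KO (adjusted p = 5.54e-12), and the difference was -1.87 ± 0.08 (adjusted p = 8.48e-14). LPS raised it by 3.74 ± 0.04 (adjusted p = 2.66e-25), or by 3.76 without the 2 libraries lacking Y-linked reads. In nonconfined cells it was higher in cPLA_2_ KO by 0.20 (adjusted p = 0.0365). That call was lost without cPLA_2_ WT replicate 2 or 3 or cPLA_2_ KO replicate 1 or 3, with adjusted p from 0.133 to 0.172.

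*Zc3h12c* (mm39, chromosome 9, 52020869 to 52079706) encodes a relative of regnase-1 with the same kind of nuclease and zinc-finger domains. It read 936, 963 and 946 in nonconfined cPLA_2_ WT and 980.2, 1036 and 927 in nonconfined cPLA_2_ KO libraries. Confined cells gave 2014, 2190.1 and 2195 in cPLA_2_ WT and 1571, 1666 and 1614 in cPLA_2_ KO. LPS gave 11779.8, 6581 and 9373 under the cPLA_2_ WT label and 6546, 10504 and 8596 under the cPLA_2_ KO label. The 2 libraries without Y-linked reads were the lowest of the 6 LPS libraries, and all 6 were above the confined ones. Those 2 were also the lowest LPS libraries for *Tnfaip3*, *Tnip1*, *Irak3*, *Zfp36*, *Zfp36l1* and *Zfp36l2*. They were the highest for *Tnip3* and *Cyld*, and neither for *Zc3h12a*. Exons of *Zc3h12c* overlap *Mir6244* by 117 bp on the opposite strand. Confinement raised *Zc3h12c* by 1.17 ± 0.15 in cPLA_2_ WT (adjusted p = 7.04e-07) and by 0.72 ± 0.15 in cPLA_2_ KO (adjusted p = 0.000404). The difference of -0.45 ± 0.21 did not pass the test (adjusted p = 0.129), but did in a fit of the 4 groups compared alone (adjusted p = 0.000236). LPS raised it by 3.17 ± 0.10 (adjusted p = 4.47e-17), or by 3.37 without the 2 libraries lacking Y-linked reads.

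*Zfp36* (mm39, chromosome 7, 28076209 to 28079678) encodes tristetraprolin (TTP), which binds AU-rich elements and recruits the CCR4-NOT deadenylase. It read 10626, 9601 and 9565 in nonconfined cPLA_2_ WT and 11967, 11349 and 12297 in nonconfined cPLA_2_ KO libraries. Confined cells gave 17753, 16804 and 17516 in cPLA_2_ WT and 12073, 10724 and 11248 in cPLA_2_ KO. LPS gave 32626, 26312 and 28809 under the cPLA_2_ WT label and 25981, 34090.3 and 30025 under the cPLA_2_ KO label. Confined and nonconfined cPLA_2_ KO libraries overlapped, whereas confined cPLA_2_ WT stood above both. The log2 fold change on confinement was 0.81 ± 0.08 in cPLA_2_ WT (adjusted p = 1.95e-08) and -0.07 ± 0.08 in cPLA_2_ KO (adjusted p = 0.533), a difference of -0.87 ± 0.11 (adjusted p = 3.68e-06). LPS raised *Zfp36* by 1.44 ± 0.06 (adjusted p = 1.01e-15), or by 1.53 without the 2 libraries lacking Y-linked reads. In nonconfined cells it was higher in cPLA_2_ KO by 0.26 (adjusted p = 0.0479), a call that was lost without cPLA_2_ WT replicate 2 or 3 or cPLA_2_ KO replicate 1 or 3 (adjusted p from 0.143 to 0.166).

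*Zfp36l1* (mm39, chromosome 12, 80154534 to 80159788) encodes a TTP relative that binds the same elements. It read 17812, 16969.9 and 16614 in nonconfined cPLA_2_ WT and 16024, 16006 and 15364 in nonconfined cPLA_2_ KO libraries. Confined cells gave 20260.5, 19061 and 19492 in cPLA_2_ WT and 17824, 16594 and 16916 in cPLA_2_ KO. LPS gave 39468, 36091 and 39459.5 under the cPLA_2_ WT label and 37507, 41504 and 39313 under the cPLA_2_ KO label. LPS thus set *Zfp36l1* apart from all 12 other libraries, and confinement moved it little. Its change on confinement was 0.19 ± 0.05 in cPLA_2_ WT (adjusted p = 0.0014), but -0.03 (adjusted p = 0.528) with every library scaled to the same total. In cPLA_2_ KO it was 0.11 ± 0.05 (adjusted p = 0.0533), or 0.14 (adjusted p = 0.0447) without confined replicate 2 and 0.11 with DESeq2 (adjusted p = 0.0479), and the difference between the genotypes was -0.08 (adjusted p = 0.431). LPS raised it by 1.24 ± 0.03 (adjusted p = 1.35e-18), or by 1.28 without the 2 libraries lacking Y-linked reads.

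*Zfp36l2* (mm39, chromosome 17, 84491352 to 84495376), which encodes another AU-rich element binding protein of this family, moved the other way. It read 21351, 20561 and 20917 in nonconfined cPLA_2_ WT and 23638, 22985 and 24564 in nonconfined cPLA_2_ KO libraries. Confined cells gave 11267, 11114 and 10919.9 in cPLA_2_ WT and 22041, 20175 and 21288 in cPLA_2_ KO. LPS gave 5267, 4469 and 4675 under the cPLA_2_ WT label and 4335, 5342 and 4775 under the cPLA_2_ KO label. Confined cPLA_2_ WT libraries were below all nonconfined ones, LPS libraries were lower still, and confined cPLA_2_ KO overlapped nonconfined cPLA_2_ WT. The log2 fold change on confinement was -0.92 ± 0.06 in cPLA_2_ WT (adjusted p = 5.57e-11) and -0.17 ± 0.06 in cPLA_2_ KO (adjusted p = 0.0373), and the difference was 0.75 ± 0.09 (adjusted p = 1.1e-06). The call in cPLA_2_ KO was lost without nonconfined replicate 1 or 3 or confined replicate 2 or 3, with adjusted p from 0.0705 to 0.149. LPS lowered *Zfp36l2*, with a change of -2.22 ± 0.04 (adjusted p = 7.41e-21) that ranked 370 from the lowest of all genes. Without the 2 libraries lacking Y-linked reads the change was -2.15. The lncRNA gene *Gm36279* overlaps 180 bp of its exons on the opposite strand.

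**Figure D2:**
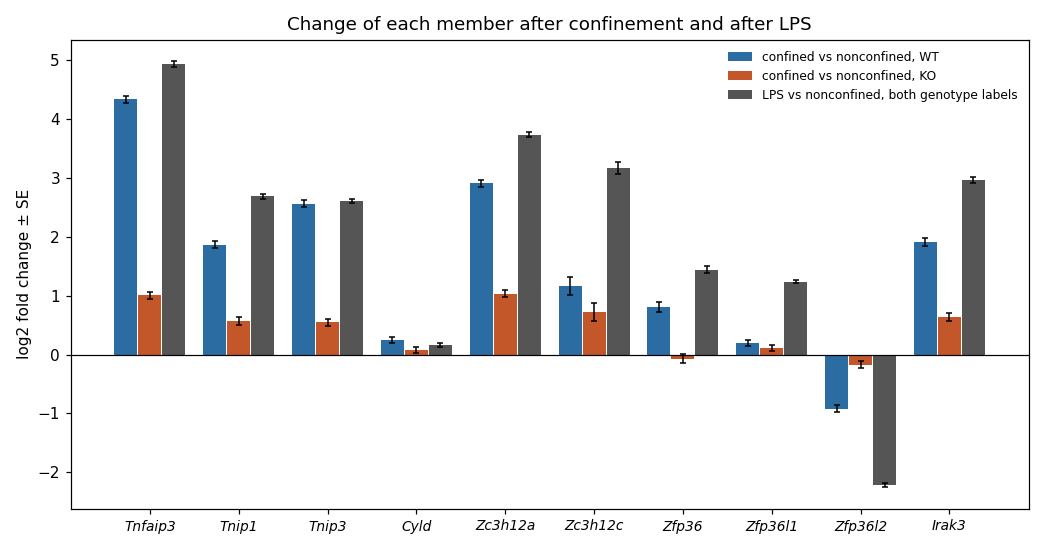
Log2 fold change (vertical axis) of each gene after confinement in cPLA_2_ WT and cPLA_2_ KO and after LPS over both genotype labels; bars start at 0 and error bars are the limma SE. *Zfp36l2* was the gene with a downward bar in all 3 comparisons, at -0.92, -0.17 and -2.22, while *Zfp36l1* in cPLA_2_ WT and *Cyld* after LPS changed direction with every library scaled to the same total.

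Counted together, 9 of the 10 genes were called higher and 1 lower in confined cPLA_2_ WT cells, where 28.2% and 28.4% of all genes were called higher and lower. With a log2 fold change above 1 also required, 6 were called higher, against 11.4% of all genes. Their median log2 fold change was 1.52, beside -0.01 for all genes. In cPLA_2_ KO 6 were called higher and 1 lower, with 22.8% and 23.4% of all genes, and 2 passed the stricter rule as higher, against 6.43%. Those 2, *Tnfaip3* and *Zc3h12a*, lay just over that cut and fell to 0.94 and 0.99 when a single library was left out. The median there was 0.56, beside 0.01. The response differed between the genotypes for 6 genes with a negative difference, against 15.6% of all genes called in that direction. Of these, 5 rose less in cPLA_2_ KO and *Zfp36* had no called change there. The difference was positive for 1 gene, *Zfp36l2*, against 10.2%. A negative difference beyond 1 on the log2 scale was found for 5 genes, against 6.56%. In nonconfined cells 2 genes were called higher in cPLA_2_ KO and 0 lower, against 4.78% and 4.11% of all genes. Those shares rest on 854 genes higher and 734 lower, which became 475 and 281 without cPLA_2_ KO replicate 1 and 973 and 1124 without cPLA_2_ KO replicate 2. The calls in the 10 genes, of *Zc3h12a* and *Zfp36*, depended on single libraries as given above. Of the 10, edgeR called 2 and DESeq2 3 higher, the last with *Zfp36l2* (0.18, adjusted p = 0.0403). Of all 17875 genes, edgeR called 918 and DESeq2 1080 higher. The 0 lower came from limma, with 0 also by edgeR and DESeq2, and *Zfp36l1* alone was lower at an unadjusted limma p under 0.05.

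Confined cPLA_2_ KO cells had 9 genes called lower and 1 higher than confined cPLA_2_ WT cells, against 20.6% and 18.8% of all genes. The log2 fold changes were -3.23 for *Tnfaip3*, -2.06 for *Tnip3*, -1.67 for *Zc3h12a*, -1.37 for *Tnip1* and -1.09 for *Irak3*. *Zfp36* (-0.61), *Cyld* (-0.22) and *Zfp36l1* (-0.20) were lower by less, and *Zfp36l2* was higher by 0.93. *Zc3h12c* (-0.40, adjusted p = 0.0372) was no longer called when any 1 of the 6 confined libraries was left out, with adjusted p from 0.0501 to 0.0966, which left 8 genes. DESeq2 did not call it either (-0.41, adjusted p = 0.0503). Of 16 alternatives 10 lost the call, although its confined libraries did not overlap between the genotypes. The fit takes 1 spread per gene from all groups. For *Zc3h12c* the SD was 2602 and 1979 in LPS libraries of the WT and KO labels. It was 103 and 47.3 in confined cPLA_2_ WT and cPLA_2_ KO. With every library scaled to the same total *Cyld* (-0.07, adjusted p = 0.32) and *Zfp36l1* (-0.04, adjusted p = 0.419) also lost their calls. LPS over both labels gave 9 genes called higher and 1 lower, against 37.2% and 34.3%, and with a log2 fold change beyond 1 it gave 8 higher and 1 lower, against 15.6% and 13.4%. The median was 2.65, beside 0.02 for all genes. The LPS and confinement comparisons share the nonconfined libraries, and their treated cells were collected at different times.

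None of the 10 genes was called between the libraries labelled LPS cPLA_2_ KO and LPS cPLA_2_ WT (limma, 0 called), and 0% of all 17875 genes were. At an unadjusted p under 0.05 there were 890 genes and 0 of the 10, and edgeR and DESeq2 also called 0 genes. Without the 2 libraries lacking Y-linked reads 4 genes were called higher and 15 lower, and 0 of the 10 were among them. The libraries left under both labels all had Y-linked reads, so this comparison does not settle the labels. With all LPS libraries the 10 estimates lay between -0.10 for *Zc3h12c* and 0.04 for *Zfp36l1*. In *Ddx3y* the LPS libraries were closest across the labels as cPLA_2_ WT replicate 1 with cPLA_2_ KO replicate 2 (1271 and 1476), 2 with 1 (0 and 2.12) and 3 with 3 (662 and 783). *Tnfaip3*, *Irak3*, *Zc3h12c*, *Zfp36*, *Zfp36l1* and *Zfp36l2* ranked the libraries of each label in the same order as *Ddx3y*. *Tnip1*, *Tnip3*, *Cyld* and *Zc3h12a* did not. The eosinophil sums above ran in the same pairs. The median chi-square between libraries, divided by that of sampling noise, was 3.16 for 3 with 3, 3.29 for cPLA_2_ WT replicate 2 with cPLA_2_ KO replicate 1 and 4.38 for 1 with 2, each the lowest for that cPLA_2_ WT library among the other 5 LPS libraries. An exception was cPLA_2_ KO replicate 2, which was closer to cPLA_2_ KO replicate 3 (4.12). The correlation between LPS libraries was 0.526 for cPLA_2_ WT replicate 2 with cPLA_2_ KO replicate 1 and 0.223 for 1 with 2. For 3 with 3 it was -0.195, so that pair was not matched by correlation. The labels do not give this match and the test took no account of it, so the absence of calls does not show that levels were equal. The test of whether the LPS response differed with the label called 0 of the 10 genes, against 1.28% of all genes. In that test 3 of the 10, *Zc3h12a*, *Zfp36l1* and *Irak3*, had an unadjusted p under 0.05. The share of all genes at that threshold was not counted, so nothing is read from these 3. Over all genes that test called 56 higher and 172 lower, but 179 and 345 without LPS cPLA_2_ WT replicate 2. It called 100 and 267 without the 2 libraries lacking Y-linked reads and 29 and 107 without nonconfined cPLA_2_ WT replicate 3.

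Set directly against the libraries labelled LPS cPLA_2_ WT, confined cPLA_2_ WT cells had 7 genes lower and 1 higher, against 27.2% and 21.6% of all genes. Confined cells were collected after 4 h and LPS cells the next day, so treatment and time cannot be told apart. The gap was -2.08 for *Zc3h12c*, -1.17 for *Irak3*, -0.97 for *Zfp36l1*, -0.95 for *Zc3h12a*, -0.77 for *Tnip1*, -0.75 for *Zfp36* and -0.65 for *Tnfaip3*, and *Zfp36l2* was higher by 1.21. *Cyld* differed by 0.10 (adjusted p = 0.103), and by 0.15 (adjusted p = 0.0411) without confined replicate 3, by 0.18 with edgeR (adjusted p = 0.0066), by 0.14 with DESeq2 (adjusted p = 0.0186) and by 0.39 with scaling to the same total (adjusted p = 4.25e-06). Confined cPLA_2_ KO cells had 8 genes lower and 1 higher than the libraries labelled LPS cPLA_2_ KO, against 30.6% and 28.1%, from -3.88 for *Tnfaip3* to 2.14 for *Zfp36l2*. Without the 2 libraries lacking Y-linked reads the numbers of genes called were the same under both labels.

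To compare levels between genes, normalized counts were divided by the kb of exon of each gene. In nonconfined cPLA_2_ WT cells *Zfp36l2* was the most abundant at 5564 ± 105 (SD, n = 3) per kb, followed by *Zfp36l1* at 5339 ± 192, whose libraries overlapped it, and *Zfp36* at 2836 ± 172. The other 7 genes were between 100.4 per kb for *Tnip3* and 189 per kb for *Cyld*. With the length of the longest transcript the first 4 places were the same, but *Tnip3* moved from place 10 to place 5. Exon lengths were from GENCODE vM39, in which *Tnip3* starts at 65502295, while the row counted starts at 65567382. Part of that exon length thus lies outside the row, and how this moved its place was not tested. In confined cPLA_2_ WT cells *Zfp36l1* stood at 6109 ± 189 per kb, *Zfp36* at 4957 ± 141, *Zfp36l2* at 2949 ± 46.2 and *Tnfaip3* at 2442 ± 30.9. That order depended on length, since with the longest transcript *Zfp36* came before *Zfp36l1* and *Tnfaip3* before *Zfp36l2*. In the LPS libraries *Zfp36l1* led at 12119 ± 582 per kb (SD, n = 6), with *Zfp36* at 8464 ± 939 and *Tnfaip3* at 3846 ± 284, an order that held with both lengths. *Zfp36l2*, the most abundant of the 10 before treatment, was at place 5 after LPS, or 7 with the longest transcript.

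The mRNAs known as targets of TTP or regnase-1 were looked at beside their decay factors. Of 33 tested, 27 were higher and 3 lower in confined cPLA_2_ WT cells, where 28.2% and 28.4% of all genes were, and 22 and 5 in cPLA_2_ KO, beside 22.8% and 23.4%. The median log2 fold changes were 2.97 and 0.68. The medians were the same when genes without reads in the nonconfined libraries were held at a bound of 3 counts there, which concerned *Il10*, *Il2* and *Csf2* in cPLA_2_ WT and *Il2* in cPLA_2_ KO. *Ptgs2*, the inducible cyclooxygenase, rose by 8.76 in cPLA_2_ WT and 4.79 in cPLA_2_ KO. *Il6* rose by 7.25 and 1.29, and *Il1b* by 8.45 and 3.91. *Tnf*, the classical TTP target, rose by 1.79 in cPLA_2_ WT and stood at 0.29 (adjusted p = 0.122) in cPLA_2_ KO, with a difference of -1.50 (adjusted p = 1.02e-05). *Tfrc*, the transferrin receptor and a regnase-1 target, fell by 1.41 and 1.09. The change in cPLA_2_ KO minus that in cPLA_2_ WT was called negative for 24 of the 33 and positive for 2, beside 15.6% and 10.2% of all genes. LPS raised 29 and lowered 2, beside 37.2% and 34.3%, with a median of 5.58.

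Of 9 paralogs of the 10 genes, *Zc3h12b* and *Zfp36l3* were too low to test, and of the other 7, 4 were higher and 3 lower in confined cPLA_2_ WT cells, with a median of 0.47. For these and the next lists, 28.2% of all genes were higher and 28.4% lower in that comparison. The difference between the genotypes was negative for 15.6% of all genes and positive for 10.2%. *Irak2*, a kinase of the IRAK family, rose by 0.99, while *Irak1* fell by 0.38 and *Irak4* by 0.20. *Otud7b*, an A20-like deubiquitinase, rose by 1.08 in cPLA_2_ WT and by 0.99 in cPLA_2_ KO, and the difference of -0.09 did not pass the test (adjusted p = 0.666). Of 18 partners of A20, CYLD and the linear ubiquitin ligase, 13 were higher and 3 lower in confined cPLA_2_ WT cells, with a median of 0.72. Their difference between the genotypes was called negative for 11 and positive for 2. *Malt1*, a protease that cuts A20, rose by 1.34, and *Tax1bp1*, an A20 adaptor, by 1.32. Of 31 other inhibitors of Toll-like receptor and NF-κB signalling 19 were higher and 10 lower, with *Dusp1* up by 3.90, *Il1rn* by 3.60 and *Socs3* by 3.27. Their difference was negative for 16 and positive for 5. Of 17 genes of the IRAK and MyD88 pathway 12 were higher and 2 lower, with *Cd14*, the LPS co-receptor, up by 6.11. The 9 NF-κB subunits and kinases were all higher, with a median of 1.12, and the difference was negative for 8 of them.

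Of 12 Roquin and AU-rich element binding proteins 5 were higher and 3 lower in confined cPLA_2_ WT cells, beside 28.2% and 28.4% of all genes, with a median of 0.10. Among them *Arid5a*, which protects *Il6* mRNA from regnase-1, rose by 1.98, and *N4bp1*, an RNase that shares a nuclease fold with regnase-1, by 1.51. Of 19 CCR4-NOT and PAN deadenylase genes 9 were higher and 3 lower, with a median of 0.13. By more than 1 on the log2 scale 0 were higher, beside 11.4% of all genes, and 0 lower, for which that share was not counted. Of 27 decapping, exonuclease and exosome genes 5 were higher and 16 lower, with a median of -0.23. Of 10 genes of the p38 and MK2 axis, whose kinase MK2 phosphorylates TTP, 6 were higher and 3 lower, with *Mapkapk2* up by 0.86 in cPLA_2_ WT and at 0.00 (adjusted p = 0.985) in cPLA_2_ KO. Of 18 immediate early and handling genes 11 were higher and 4 lower, with *Nr4a2* up by 3.32 and *Egr1* down, at -2.06.

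The genes whose 6 group means ran most closely with each member were taken from 6699 genes with a span of at least 1 on the log2 scale. For *Tnfaip3* they were *Zhx2*, *Nfkb1* and *Wnt10b*, for *Tnip1* *Etv3*, *Nr4a3* and *Spindoc*, and for *Tnip3* *Serpinb2*, *Ciapin1* and *Tlk2*. For *Zc3h12a* they were *Ppp1r15a*, *Mob1b* and *Plek*, for *Zc3h12c* *Ero1a*, *Alkbh5* and *Anxa2*, and for *Irak3* *Ube2f* and *F3*. For *Zfp36* they were *Pim2*, *Slfn2* and *Chmp4b*, for *Zfp36l1* *Mon1b*, *Tsku* and *Aida*, and for *Zfp36l2* *Galnt4* and *Prxl2c*. For *Cyld*, whose own means spanned 0.29, they were *Mthfd2*, *Rdh11* and *Dennd4a*. Pearson's r over the 6 means was 0.99396 to 0.99993 for the genes named here, and with 6 points and 6699 candidates it is a description of shape only.

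The upstream sequence of the 10 genes was read because most of them moved together. The 250 bases before the start of the canonical transcript (GENCODE vM39, GRCm39) were searched on both strands for the κB consensus, AP-1 (TGANTCA), CRE and the CArG box. The κB consensus was found in 3 of the 10 genes and in 4.23% of 21757 promoters of protein-coding genes, AP-1 in 1 and in 6.18%, CRE in 0 and in 1.7%, and the CArG box in 0 and in 1.4%. The 30 bases around each match are given 5′ to 3′ on the strand of the gene, at chr10:18891269-18891298 (minus strand), chr6:65502225-65502254 (plus) and chr8:89423491-89423520 (plus), with the matches in capitals (AP-1 then κB in *Tnfaip3*, κB in the others, that of *Cyld* reading on the opposite strand).
Tnfaip3: caggTGACTCAcgcgGGGACACCCCggggc
Tnip3: agtgacaaggGGGAGTTCCCtgtgcatggg
Cyld: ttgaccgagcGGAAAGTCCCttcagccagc
The *Tnfaip3* κB match began 97 and its AP-1 match 108 bases before the start, the *Tnip3* match 62 and the *Cyld* match 175. The *Tnip3* start is 65085 bp from that of the row counted by the authors, the *Tnip1* start 6536 bp, that of *Irak3* 473 bp and that of *Zc3h12c* 400 bp, so these windows may not serve the transcripts counted. The *Tnfaip3* and *Cyld* stretches lie in exons of other transcripts of the same gene. A match is a description of the letters, and *Cyld*, whose 18 values lay close together, carried one as *Tnfaip3* did.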

How the data were processed

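The deposited table holds normalized counts (unit: signal), which the authors made from gene counts divided by DESeq2 size factors. Rows follow the Mouse FAST DB annotation. The submitters' processing notes name STAR 2.7.5a, featureCounts 1.5.0 and R 3.5.3, and the strand setting of counting is not given in the sources used here. Members were rows of that table whose symbol was one of the 10 names. Members and lists were chosen with earlier results of these data known. Whole reads were recovered for 100.0% of values (tolerance 1e-06). Log2(normalized count + 1) was fitted with limma 3.58.1 (R 4.3.3) over all 18 libraries, 1 mean per group, with trend. Genes needed 10 normalized counts in 3 libraries, p-values were adjusted by Benjamini-Hochberg over 17875 genes, and a call was an adjusted p under 0.05. Fold changes are on the log2(value + 1) scale and understate those of low genes. The limma step was tested on simulated data. Named genes were all 10 members, at most 3 per direction of each list with a mean of at least 100, any gene of the target, partner and paralog lists, the 3 genes most like each member (for *Irak3* and *Zfp36l2* 1 of the 3 is not reported here), *Pla2g4a*, *Ccr7* and, chosen after their values were seen, *Ddx3y*, *Gpx3* and the other genes that overlap members. *Ccr7* averaged 15884 in nonconfined and 32945 in confined cPLA_2_ WT cells (limma log2 fold change 1.05, adjusted p = 5.4e-14). In cPLA_2_ KO it averaged 16451 and 8919 (-0.88, adjusted p = 3.51e-12), with a difference between the genotypes of -1.93 (adjusted p = 2.03e-15). edgeR 4.0.16 on recovered reads called 5283 genes higher and 4819 lower in confined cPLA_2_ WT cells, and DESeq2 1.42.0 called 5219 and 5048. Alternatives were other pseudocounts, filters, scalings, tests, call rules, gene lengths, a replicate block and leaving out each library. Promoters were read with pysam 0.24.0, and figures drawn with matplotlib 3.10.9 (Python 3.11.15). RefSeq promoter sequences were not used here, since their build differs from that of the table. No library was left out of the fit itself.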

Additional observations from a re-analysis of the deposited data

Results flagged for a closer look

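For 7 genes the response to confinement differed between cPLA_2_ KO and cPLA_2_ WT by the test of the difference itself (limma, change in cPLA_2_ KO minus change in cPLA_2_ WT on the log2 scale). The difference was -3.33 for *Tnfaip3*, -2.01 for *Tnip3*, -1.87 for *Zc3h12a*, -1.30 for *Tnip1* and -1.27 for *Irak3*, each a smaller rise in the knockout. For *Zfp36* it was -0.87, with a rise in cPLA_2_ WT and no called change in cPLA_2_ KO. For *Zfp36l2* it was 0.75, a smaller fall in the knockout. Genotype and sex of the cells cannot be told apart in these libraries. The part of the higher neutrophil and eosinophil marker levels in the knockout was not tested, nor that of the DC markers with a negative difference.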

How the results depend on the processing

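Over 2170 alternative values of the 120 changes of the 10 genes, 2083 kept direction and side of the threshold, 40 lost a call, 16 gained one and 31 changed sign. Of the 31, 4 were of changes called with the settings used. With every library scaled to the same total, *Cyld* changed to -0.34 in the LPS comparison, to -0.37 and -0.31 under the WT and KO labels, to 0.34 in confined against LPS libraries of the KO label and to 0.01 in the difference between genotypes, *Zfp36l1* to -0.03 in confined cPLA_2_ WT and 0.11 in that difference, and *Tnip3* to 0.28 in confined against LPS libraries of the WT label. For that comparison *Tnip3* was 0.01 with TMM scaling, 0.06 with edgeR, 0.02 with DESeq2, 0.03 without both LPS libraries lacking Y-linked reads (chosen after seeing the data), and -0.07 to 0.03 with a library left out (0.00 and 0.03 where the sign changed). Between LPS labels, where no value passed the test, *Zfp36l2* was -0.01 with TMM scaling. With a library left out, values there ran from -0.07 to 0.06 for *Tnfaip3* (0.05, 0.00 and 0.06 where the sign changed), -0.02 to 0.07 for *Tnip3*, -0.04 to 0.01 for *Cyld*, -0.32 to 0.10 for *Zc3h12c* (0.08 and 0.10), -0.06 to 0.14 for *Zfp36* (-0.04 and -0.06), 0.00 to 0.08 for *Zfp36l1* and -0.07 to 0.08 for *Zfp36l2* (-0.05, -0.02 and -0.07), and the label-dependent LPS response from -0.01 to 0.07 for *Cyld* and -0.37 to 0.05 for *Zc3h12c* (0.03 and 0.05). Scaling to the same total also moved the share of all calls that were higher from 49.8% to 32.6% in confined cPLA_2_ WT, 39.5% to 70.7% in the difference, 47.7% to 69.8% between confined genotypes, 53.8% to 42% between nonconfined genotypes, 52% to 26% with LPS, and 44.2% to 75.1% and 47.9% to 77.6% in confined against LPS libraries of the WT and KO label. The median of all genes moved to 0.24 in the difference, 0.19 between confined genotypes, and 0.27 and 0.47 in confined against LPS libraries of the WT and KO label. That scaling gave 2 of the 10 genes lower with LPS over both labels and under each, and 1 lower in nonconfined cPLA_2_ KO. It gave 3 higher in confined against LPS libraries of the WT label and 2 of the KO label. Of all 18016 genes tested with it, 10246 were lower with LPS over both labels, and 9351 and 9244 under the WT and KO labels. In nonconfined cPLA_2_ KO 1042 were lower, and 7369 and 9663 were higher in confined against LPS libraries of the WT and KO label.

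Requiring a log2 fold change beyond 1 gave 0 of 10 genes lower in confined cPLA_2_ WT. In confined cPLA_2_ KO it gave 2 higher, against 6.43% of all genes, and 0 lower. It gave 0 with a positive difference, 0 higher in nonconfined cPLA_2_ KO, and 0 higher and 5 lower in confined cPLA_2_ KO against cPLA_2_ WT. Confined cPLA_2_ WT against LPS gave 2 lower. Apart from that 6.43%, shares of all genes under this rule were not counted for these results. Unadjusted p at most 0.05 with a 1.5-fold change, for which no share of all genes was counted, gave 0 lower in confined cPLA_2_ KO and 0 higher in nonconfined cPLA_2_ KO. Without a filter both counts were 0, with TMM scaling the second was 0 and with a pseudocount of 0.5 it was 1. Of all 31495 genes without a filter, 4070 were lower in confined cPLA_2_ KO and 711 higher in nonconfined cPLA_2_ KO. The latter were 766 of 17872 with TMM scaling and 846 of 17875 with that pseudocount. edgeR and DESeq2 gave 2 genes higher in confined against LPS libraries of the WT label, and 4615 and 4327 of all 17875 genes. With a replicate block, 0 genes were lower in confined cPLA_2_ KO and 1 was higher in nonconfined cPLA_2_ KO, beside 4117 and 767 of all 17875 genes. The replicate block numbers do not pair samples, since no pair of groups had 3 correlations above 0.1. With a library left out, 0 to 1 gene was lower in confined cPLA_2_ KO and 0 to 2 were higher in nonconfined cPLA_2_ KO. In confined against LPS libraries of the WT label 1 to 2 were higher. Over all 17875 genes the matching numbers were 3679 to 3960, 475 to 973 and 3425 to 3657. Genotype cannot be told apart from sex in nonconfined and confined libraries.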
